A study of Mus musculus with 11 samples.

Results

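The regions described here were open in all 11 ATAC-seq libraries of mouse esophagus cells, and they numbered 10555 of 124941 regions (8.45%). They were found by joining the intervals of the 11 lists of open intervals, on chromosomes 1 to 19 and X, wherever they shared at least 1 bp. A region was open in a library if an interval of that library lay in it, and regions open in all 11 are called constitutive. The regions were thus chosen by the intervals of all 11 lists, so the presence and strength of these regions relative to other regions are given as description only. Of the constitutive regions, 7965 lay within 1 kb of an annotated gene end (either end of a gene; gene-end regions) and 2590 lay farther away (distal regions).

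The libraries came from 4 groups. Krt5-SmoM2-Sox9fl/fl esophagus (SmoM2-Sox9cKO, 3 libraries; strain not stated) carried an activated form of Smoothened, the signal-transducing protein of the Hedgehog pathway, driven through Krt5, a gene of basal epithelial cells, together with floxed alleles of Sox9, a transcription factor gene of progenitor cells. Krt5-SmoM2 esophagus (SmoM2, 3 libraries, CD1 strain) carried the same activated protein without the floxed Sox9, and cells of both of these groups were sorted for high EpCAM, an adhesion protein of epithelial cells. Krt8YFP embryos at embryonic day 13 (Embryo, 2 libraries) were sorted for a yellow fluorescent protein marking cells with Krt8, a keratin of simple epithelium. Wild-type CD1 esophagus (WT, 3 libraries) was sorted for low EpCAM, so gate and genotype cannot be told apart in any comparison with WT. The 9 libraries not labelled embryonic are called adult here, since no age is given for them. The labels do not say whether the libraries of a group came from separate animals, so the spread between them may be technical.

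In ATAC-seq a transposase cuts where DNA is free of tightly packed nucleosomes. Promoters of genes that nearly every cell uses, often rich in the dinucleotide CpG, are known to stay free of nucleosomes across cell types, whereas enhancers, which can lie in introns or far from genes, are mostly open in particular cell types. Esophageal epithelium is a stratified squamous tissue that forms in the embryo from a simple columnar lining.

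The promoters of the gene-end regions can be read directly. Below are the 300 bases around the start site (250 before it, 50 after it) of the 3 genes in the highest-ranking constitutive regions with a single start site of a named protein-coding gene, where rank is the place of an interval by the authors' −log10 p-value within its list and the median over libraries is used. They are followed by Rpl13a, a gene of the large ribosomal subunit with a constitutive region, and by Krt5, whose promoter region was open in all 9 adult libraries and in neither Embryo library. All come from RefSeq (GRCm38.p6) and are written 5′ to 3′ along the gene. Capitals mark matches on either strand to the CCAAT box (CCAAT), GC box (GGGCGG), ETS (CCGGAAG), NRF1 core (GCATGCGC), YY1 (AAGATGGC) and Sox (ACAAAG) letters.
Cwc22 promoter, chr2:77946307-77946606, minus strand: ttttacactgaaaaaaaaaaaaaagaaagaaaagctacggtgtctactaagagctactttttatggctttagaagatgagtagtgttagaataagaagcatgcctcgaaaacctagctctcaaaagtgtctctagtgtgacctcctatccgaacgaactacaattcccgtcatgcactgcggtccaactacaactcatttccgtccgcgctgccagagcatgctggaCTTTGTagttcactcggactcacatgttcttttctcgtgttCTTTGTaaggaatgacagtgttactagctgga
Ggct promoter, chr6:54992818-54993117, minus strand: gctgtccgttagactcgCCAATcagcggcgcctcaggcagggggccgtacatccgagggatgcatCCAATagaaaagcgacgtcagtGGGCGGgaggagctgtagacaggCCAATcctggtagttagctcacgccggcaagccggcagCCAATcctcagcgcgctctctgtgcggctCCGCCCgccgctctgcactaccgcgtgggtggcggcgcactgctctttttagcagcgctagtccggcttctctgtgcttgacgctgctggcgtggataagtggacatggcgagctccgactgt
Mrpl17 promoter, chr7:105811038-105811337, minus strand: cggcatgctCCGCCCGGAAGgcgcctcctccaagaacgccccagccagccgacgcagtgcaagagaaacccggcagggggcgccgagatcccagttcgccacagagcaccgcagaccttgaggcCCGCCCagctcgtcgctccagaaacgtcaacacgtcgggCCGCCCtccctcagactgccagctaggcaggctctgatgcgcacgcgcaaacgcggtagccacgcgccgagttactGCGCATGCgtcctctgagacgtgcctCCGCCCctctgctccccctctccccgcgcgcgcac
Rpl13a promoter, chr7:45128696-45128995, minus strand: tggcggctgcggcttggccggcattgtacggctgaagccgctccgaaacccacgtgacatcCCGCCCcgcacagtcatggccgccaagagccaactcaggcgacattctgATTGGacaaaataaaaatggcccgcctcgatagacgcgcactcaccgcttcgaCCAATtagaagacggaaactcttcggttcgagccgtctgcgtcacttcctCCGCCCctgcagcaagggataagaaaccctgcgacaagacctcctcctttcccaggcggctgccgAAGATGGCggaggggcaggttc
Krt5 promoter, chr15:101712856-101713155, minus strand: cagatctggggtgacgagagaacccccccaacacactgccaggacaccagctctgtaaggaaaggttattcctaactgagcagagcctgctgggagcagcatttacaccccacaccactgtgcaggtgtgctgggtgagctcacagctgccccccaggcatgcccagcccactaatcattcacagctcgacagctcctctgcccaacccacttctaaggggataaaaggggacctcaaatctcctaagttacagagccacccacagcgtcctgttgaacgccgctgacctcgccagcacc

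The CpG observed-to-expected ratio, which is 1 where CpG is as frequent as the C and G content predicts, was 0.833 for Cwc22, 0.932 for Ggct, 1.00 for Mrpl17, 1 for Rpl13a and 0.251 for Krt5. Ggct, an enzyme of glutathione breakdown, carried 4 CCAAT boxes and 2 GC boxes. Mrpl17, a mitochondrial ribosomal protein, carried 4 GC boxes, an ETS match that shares bases with one of them and an NRF1 core starting 11 bases before the start site. Rpl13a carried 2 CCAAT boxes, 2 GC boxes and a YY1 match starting 29 bases after the start site. Cwc22, a splicing factor, held only 2 matches to the short Sox letters, and Krt5 held none of the 10 motifs searched. A match is a description of letters, not evidence of a bound factor.

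These promoters were open to different widths. The Cwc22 region (chr2:77945536-77946659) was covered over 1057, 1036 and 1036 bp in SmoM2-Sox9cKO, over 1056, 1052 and 1056 bp in SmoM2, over 627 and 320 bp in Embryo, and over 1023, 1118 and 1086 bp in WT. The Ggct region (chr6:54992293-54993351) was covered over 863, 865 and 770 bp in SmoM2-Sox9cKO, 799, 776 and 901 bp in SmoM2, 820 and 418 bp in Embryo, and 791, 765 and 1029 bp in WT. The Krt5 region (chr15:101712571-101715201) was covered over 2546, 2241 and 1974 bp in SmoM2-Sox9cKO, 2171, 2104 and 2430 bp in SmoM2, 0 bp in both Embryo libraries, and 1506, 1232 and 1841 bp in WT. At Cwc22 the Embryo values lay below all adult values, and at Ggct Embryo 1 lay among them.

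The lists differed in length and this set the number of constitutive regions. Adult lists held 69026 to 87910 intervals covering 52.0 to 62.8 Mb, and the Embryo lists held 24902 and 14255 intervals covering 15.4 and 8.22 Mb. The lists hold no read numbers, which leaves depth unknown. Of the intervals, 43.3% and 75.3% in Embryo 1 and 2 lay in constitutive regions, against 12.5% to 16.6% in the adult libraries. Without Embryo 2 there were 16388 such regions, 66.6% of them at gene ends, and without both Embryo libraries there were 44521, 34.1% at gene ends. The set is therefore bounded mainly by the shorter Embryo list.

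Constitutive regions lay mostly at genes. The gene-end share was 75.5% (Wilson 95% interval 74.6 to 76.3), against 19.7% of all regions. It was 21.3% among the 33964 regions open in all 9 adult libraries but not in both Embryo libraries. The Wilson interval treats regions as independent and leaves out the choice of libraries, which moved the share to 66.6% without Embryo 2. Seen from the other side, 32.4% of all gene-end regions were constitutive, as were 2.58% of distal regions. The 6641 regions open in 10 libraries, just outside the rule, were at gene ends in 47.8% of cases, and 96.3% of them were missing only in an Embryo library (5833 in Embryo 2 and 559 in Embryo 1). Among the adult libraries WT 1 was the one missing most often, at 133 regions, against 8 to 30 for each of the others.

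**Figure D1:**
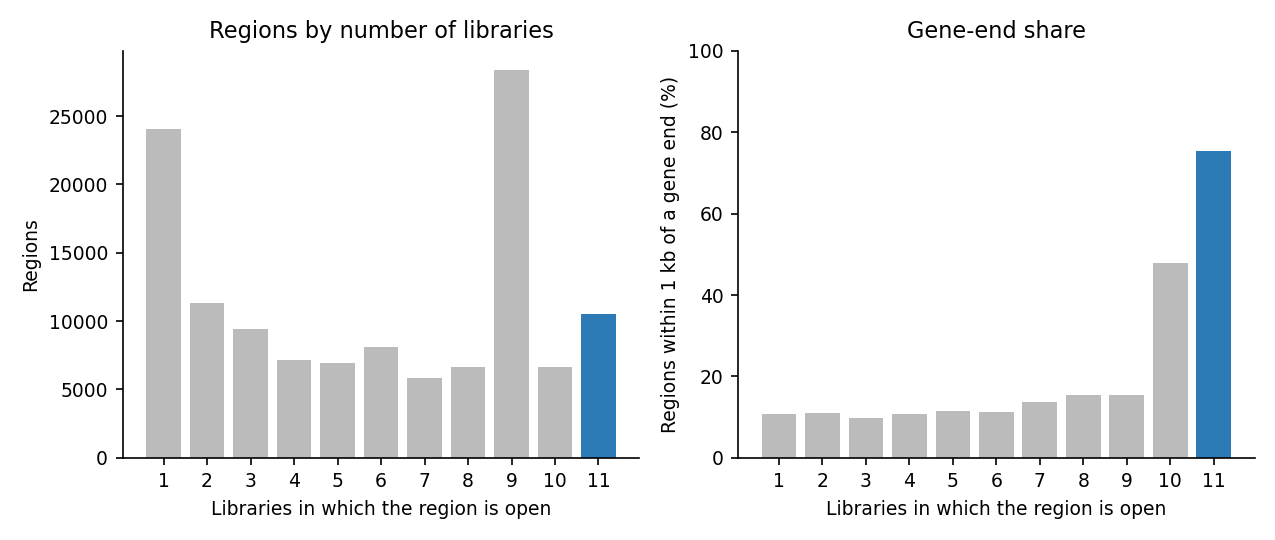
Number of regions (left) and percentage within 1 kb of a gene end (right) by the number of libraries in which a region was open, with constitutive regions in blue. The gene-end share stays between 9.85% and 15.4% for regions open in 1 to 9 libraries, is 47.8% at 10 and 75.5% at 11.

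Within every library the same held for single intervals. The gene-end share of intervals in constitutive regions exceeded that of the other intervals by 55.9 ± 4.11 percentage points (mean ± SD, n = 11 libraries), in 11 of 11 libraries (exact sign-flip test, two-sided, p = 0.000977, the smallest it can give). The libraries share the same constitutive regions, so they are not independent in this test. Across libraries 73.0% to 73.9% of intervals in constitutive regions were at gene ends, against 15.0% to 29.7% of the other intervals.

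Gene-end constitutive regions usually held a start site. Start sites are known for 17274 of 21631 protein-coding genes and for none on chromosome 18, so counts of regions with one are lower bounds. Off chromosome 18, 6732 of 10274 constitutive regions (65.5%) held at least 1. The same held for 3756 of 32748 (11.5%) regions open in all adult libraries but not in both Embryo libraries. Start sites of 2 or more genes were inside 1426 of them. A divergent pair, with genes leaving in opposite directions, was inside 1134 of the 6732 (16.8%), against 203 of the 3756 (5.40%). Ends of 2 protein-coding genes met 1468 gene-end constitutive regions and no protein-coding gene end met 615, so a constitutive region at a gene's end need not be that gene's own promoter.

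Promoter sequence followed the number of libraries. Of 21045 promoters of 17274 protein-coding genes, 8250 had their start site in a constitutive region, and these had a median CpG ratio of 0.817 (quartiles 0.680 and 0.942) and a median GC content of 62.7%. The ratio was 0.677 where the region was open in 9 or 10 libraries, 0.480 where it was open in 1 to 8, and 0.197 where the start site lay in no region. Promoters with a ratio under 0.1 had their start site in a constitutive region in 0.973% of 2158 cases, and those with a ratio of 1 to 1.1 in 76.0% of 1152 cases.

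Short motifs differed as well. The GC box was in 72.2% of promoters with a start site in a constitutive region and in 12.97% of those in no region, against 46.7% of all promoters. The ETS letters were in 21.3% and 2.48%, against 11.7% of all. The NRF1 core was in 6.73% and 0.959% and the YY1 letters in 5.52% and 1.33%. The TATA box (TATAAA) was less frequent, at 5.37% against 23.0%, and so were the Sox letters, at 11.4% against 23.7%, and the AP-1 letters (TGANTCA), at 3.96% against 9.55%. The CCAAT box was in 42.0% and 39.8%. Promoters with a start site in a region open in 9 or 10 libraries lay closer for most motifs. They held the GC box in 60.7%, ETS in 12.4%, NRF1 in 2.64% and YY1 in 2.10% of cases. TATA was in 7.90% of them, Sox in 14.5%, AP-1 in 7.44% and CCAAT in 29.7%. A high share of GC boxes is thus not particular to constitutive regions. Motifs made of G and C, or of A and T, move with GC content, and their part apart from it was not tested.

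**Figure D2:**
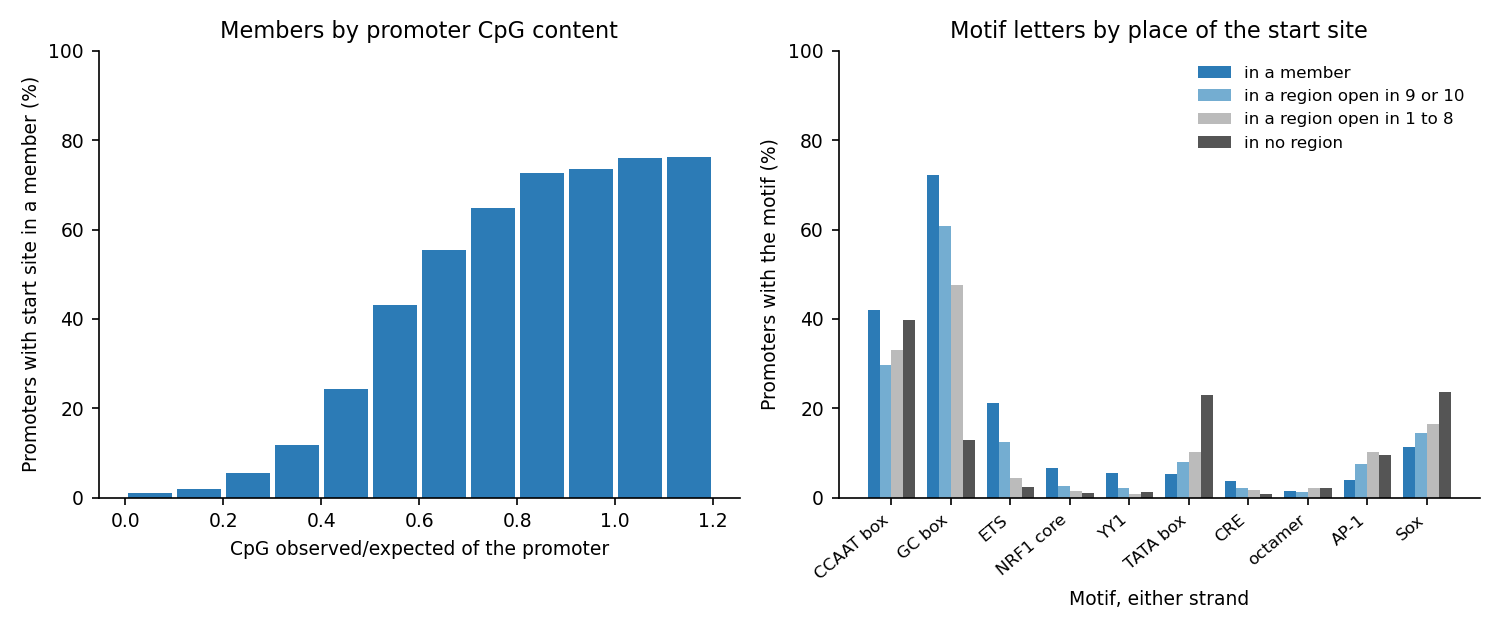
Left, percentage of protein-coding promoters with their start site in a constitutive region by CpG observed-to-expected ratio, in bins of 0.1. Right, percentage of promoters holding each motif on either strand, by where the start site lay. Constitutive promoters have more GC box and ETS letters, and promoters in no region have more TATA and Sox letters.

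Most genes of the basic machinery of the cell had such a region at 1 end or more. Among all 21631 protein-coding genes, 8591 (39.7%) had a constitutive region at a gene end, and 7082 of 17274 (41%) had a start site in one. Translation factors stood at 23 of 24 genes, with Eef1g at a median rank of 1.83% of its list and Eef2, the elongation factor that moves the ribosome along, at 3.40%. The large ribosomal subunit stood at 33 of 37 (Rpl37 1.45%, Rpl15 1.95%) and the small subunit at 27 of 31 (Rps29 0.453%, Rps23 1.34%). The spliceosome stood at 26 of 30 (Prpf4, Snrpe), the proteasome at 26 of 31 (Psmd12, Psmd14), RNA polymerase II and Mediator at 22 of 28 (Med23, Polr2d) and the respiratory chain with ATP synthase at 22 of 32 (Ndufb5, Cycs). Of the 24 genes of the lists for ribosome, translation, splicing, proteasome and transcription that lacked one, 20 had an end region open in 10 libraries, missing in 1 Embryo library.

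The region at Rps29 (chr12:69158542-69159844) was covered over 1170, 1019 and 1094 bp in SmoM2-Sox9cKO, 1140, 1173 and 1258 bp in SmoM2, 952 and 930 bp in Embryo and 1141, 1231 and 1140 bp in WT. Embryo lay below every adult library there. At Rpl37 (chr15:5115563-5117574) the coverage was 1497, 933 and 1053 bp in SmoM2-Sox9cKO, 1154, 1430 and 1263 bp in SmoM2, 744 and 589 bp in Embryo, and 2012, 1372 and 1498 bp in WT. The adult groups overlapped, and WT 1 was the widest.

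**Figure D3:**
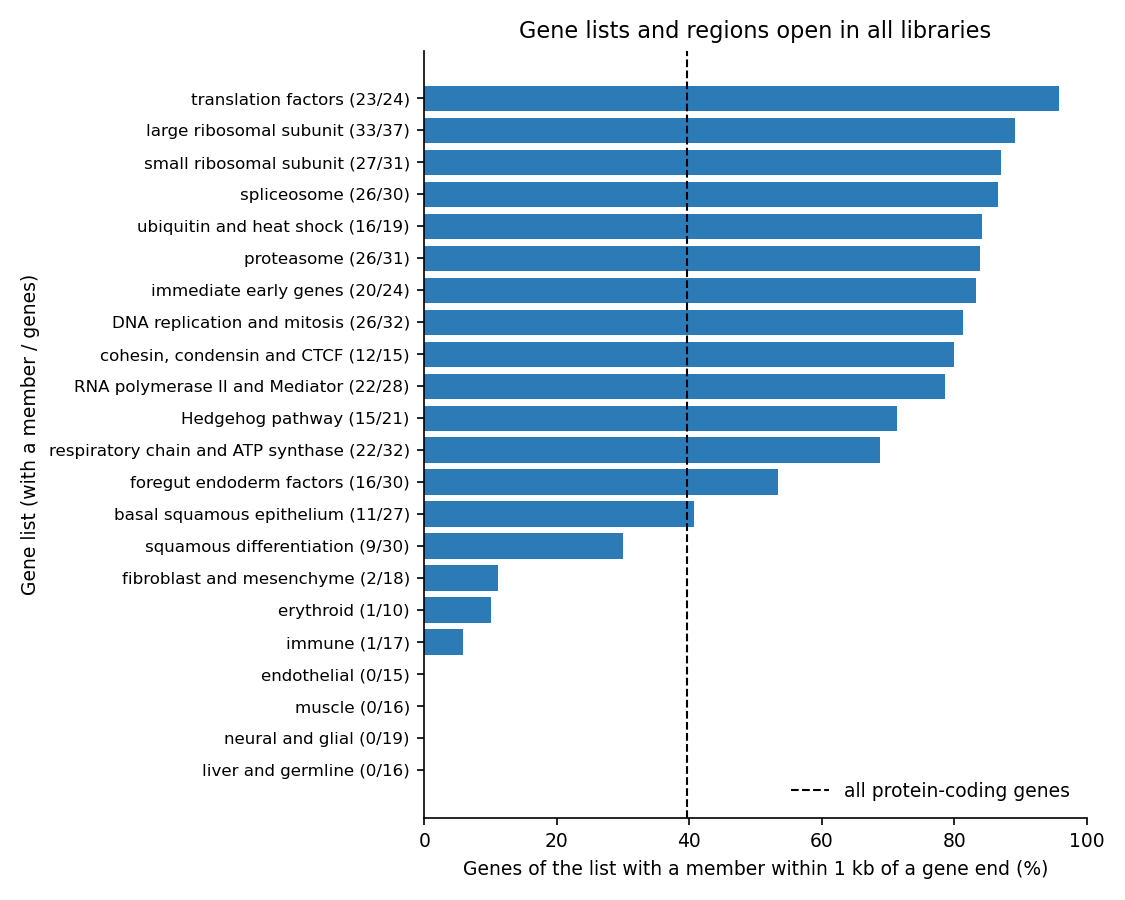
Percentage of genes in each list with a constitutive region within 1 kb of a gene end, ordered by that percentage, with the counts beside the names. The dashed line is the 39.7% of all protein-coding genes; translation factors are at 23 of 24 and the endothelial, muscle, neural, and liver and germline lists at 0.

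Genes of growth and stress responses were in the same range. DNA replication and mitosis genes had a constitutive end region in 26 of 32 cases, with the cyclin Ccna2 at a median rank of 0.617% and the replicative helicase subunit Mcm4 at 1.96%. Immediate early genes, which respond to stimuli within minutes, had one in 20 of 24 cases (Klf2 3.04%, Atf3 4.07%, Fosl1, Jun, Fos). Cohesin, condensin and CTCF genes stood at 12 of 15 (Pds5b and Wapl, regulators of cohesin, and Smc3, a subunit of its ring) and ubiquitin and heat shock genes at 16 of 19 (Dnajb1, Ube2d3). Gene ends are the outermost coordinates of a gene, so a gene with an upstream alternative start can lack one. In all, 12 list genes had a start site inside a constitutive region but no such region at an outer end, among them Rps2 and Egr2.

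Hedgehog pathway genes are of interest because 2 groups carry an activated Smoothened, and they divided by role. A constitutive region lay at 15 of 21 genes. Among these were the co-receptors Boc, Cdon and Gas1, the transducer Smo, the regulators Sufu, Kif7, Spop, Gpr161, Prkaca, Gsk3b and Csnk1a1, the transcription factors Gli2 and Gli3, and the ligand Dhh, at whose end the region held no annotated start site of that gene. The 6 without one were the ligands Shh and Ihh, the pathway targets Ptch1, Gli1 and Hhip, and Disp1, which releases the ligand. The end regions of Gli1, Ptch1 and Disp1 were open in all 9 adult libraries and in neither Embryo library.

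At Smo (chr6:29735305-29737638) the covered width was 1584, 1213 and 1219 bp in SmoM2-Sox9cKO, 1522, 1326 and 1714 bp in SmoM2, 938 and 569 bp in Embryo, and 2173, 1473 and 1452 bp in WT. At Gli2 (chr1:119052684-119054237) it was 1133, 1409 and 1103 bp in SmoM2-Sox9cKO, 1406, 945 and 1182 bp in SmoM2, 342 and 349 bp in Embryo, and 1406, 1063 and 1371 bp in WT. The adult groups overlapped at both genes and the Embryo values were the lowest. At Gli1 (chr10:127340753-127342678), the region over an end of the gene, which is not constitutive, it was 1748, 899 and 844 bp in SmoM2-Sox9cKO, 525, 928 and 1134 bp in SmoM2, 0 bp in Embryo, and 514, 370 and 593 bp in WT. Gli1 and Ptch1 each held a distal constitutive region inside the gene. The one in Gli1 (chr10:127338800-127340442) was covered over 1264, 1453 and 1238 bp in SmoM2-Sox9cKO, 1192, 1171 and 1509 bp in SmoM2, 495 and 481 bp in Embryo, and 1149, 1311 and 1353 bp in WT. The one in Ptch1 (chr13:63565740-63566847), 5 bp from an annotated start site, was covered over 709, 686 and 482 bp in SmoM2-Sox9cKO, 676, 787 and 714 bp in SmoM2, 436 and 253 bp in Embryo, and 587, 884 and 562 bp in WT. Both genes were thus open inside in Embryo.

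Sox9, the gene floxed in one group, had a constitutive region over one end of the gene (chr11:112781281-112783193). Its covered width was 1879, 1766 and 1795 bp in SmoM2-Sox9cKO, 1739, 1659 and 1671 bp in SmoM2, 803 and 764 bp in Embryo, and 1704, 1743 and 1755 bp in WT. The region was open in the SmoM2-Sox9cKO libraries too. Which part of the gene is floxed is not stated in the labels, and an open region says nothing of a deletion inside the gene, so this does not check the genotype.

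Epithelial lists lay nearer to the 39.7% of all protein-coding genes. Of 27 genes of basal squamous epithelium 11 (40.7%) had a constitutive end region, among them the integrin Itgb1, the adhesion genes Jup, Perp and Dsp, Cdh1, Epcam, Krt17 and the transcription factors Klf5 and Sox2. Krt5, Krt14, Col17a1 and Tfap2a were open at their ends in the 9 adult libraries and in neither Embryo library. Trp63, the master regulator of stratified epithelium, had no region at its outer ends but 3 distal constitutive regions. Of 30 genes of squamous differentiation 9 (30%) had one (Grhl1, Evpl, Emp1, Ovol1, Tgm1, Klf4 and others) and the keratins Krt4 and Krt13 did not. The differentiation keratin Krt10 did have one (chr11:99385899-99386871), at a median rank of 59.9%. Of 30 foregut endoderm genes 16 (53.3%) had one, including Foxa1, Foxa2, Gata6 and Krt19.

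The region at Epcam (chr17:87635557-87637347) was covered over 1791, 1596 and 1747 bp in SmoM2-Sox9cKO, 1356, 1438 and 1765 bp in SmoM2, 1242 and 1328 bp in Embryo, and 1713, 1718 and 1707 bp in WT. All 4 groups had it open, although 2 groups were sorted for high and 1 for low EpCAM. At Sox2 (chr3:34647857-34650366), a transcription factor of foregut and basal cells, the covered width was 2089, 1913 and 1966 bp in SmoM2-Sox9cKO, 1822, 1760 and 2070 bp in SmoM2, 792 and 378 bp in Embryo, and 1670, 1682 and 2387 bp in WT. Krt8, the gene that marks the sorted Embryo cells, had its end region open in the 9 adult libraries and in 1 of 2 Embryo libraries.

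Markers of other cell types were nearly absent from the genes with a constitutive end region. Constitutive end regions were found at 4 of 111 genes of 7 lists, against 39.7% of all protein-coding genes. The immune list had 1 of 17 (Spi1), fibroblasts 2 of 18 (Col1a1, Vim), the erythroid list 1 of 10 (Klf1), and the endothelial list 0 of 15, muscle 0 of 16, neural and glial 0 of 19, and liver and germline 0 of 16. The defining genes Ptprc, Cd3e, Pecam1, Cdh5, Col3a1, Pdgfra, Des, Sox10, Gata1 and Alb had none at an end. Genes without one were not all closed at their ends. An end region open in 10 libraries lay at 5 of 19 such neural and glial genes and 3 of 15 endothelial ones. No region lay at the ends of 10 of the 16 immune and 12 of the 16 liver and germline genes without one.

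Gene families ranged widely around the 39.7% of all protein-coding genes. The 17 Klf transcription factor genes had 14 with a constitutive end region, DEAD-box helicases 28 of 36, NADH dehydrogenase genes 37 of 49, histone genes 58 of 90 and zinc finger Zfp genes 223 of 397. Solute carriers had 140 of 375 (37.3%), Sox factors 7 of 19 (36.8%) and Tmem transmembrane protein genes 120 of 238 (50.4%), near that share. Olfactory receptors had 0 of 1110, keratin-associated proteins 0 of 56, beta-defensins 0 of 42, keratins 4 of 53, Hox genes 2 of 39 and potassium channels 5 of 94. Among noncoding genes the share was 136 of 408 for tRNA genes (33.3%), 12.2% for lncRNA genes and 1.04% for pseudogenes. The rRNA genes stood at 49 of 63, of which 48 lie inside 1 region on chromosome 8.

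MicroRNA genes had few constitutive regions. Of 1005 annotated hairpins 91 (9.05%) lay within 1 kb of one, and for 22 of these the region was more than 1 kb from any protein-coding gene end. The 6 shown here are from these 22, chosen after their values were seen because their names are widely known, with the seed (bases 2 to 8) in capitals. All are from RefSeq (GRCm38.p6).
miR-210-3p: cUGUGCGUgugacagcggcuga
miR-203-3p: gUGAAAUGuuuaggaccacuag
let-7i-5p: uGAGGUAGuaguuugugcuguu
miR-148a-3p: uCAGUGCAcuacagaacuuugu
miR-132-3p: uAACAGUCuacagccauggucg
miR-212-3p: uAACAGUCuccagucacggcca

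miR-132-3p and miR-212-3p share the seed AACAGUC and sit in the same constitutive region (chr11:75172512-75173881). The Mir210 region (chr7:141221394-141222510), at a hypoxia-responsive microRNA, had a median rank of 2.07% of its list and was covered over 953, 894 and 926 bp in SmoM2-Sox9cKO, 904, 915 and 957 bp in SmoM2, 825 and 515 bp in Embryo, and 1097, 972 and 1018 bp in WT. The region over Mir203 (chr12:112129414-112131032), a microRNA of differentiating squamous epithelium, was covered over 1217, 1306 and 1498 bp in SmoM2-Sox9cKO, 1523, 1096 and 1448 bp in SmoM2, a mean of 689.5 ± 267 bp in Embryo (SD, n = 2), and 1089, 1428 and 1034 bp in WT. Its median rank was 47.1%, far lower in the lists than that of Mir210, and the adult groups overlapped.

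Constitutive regions were wide. Their median width was 1412 bp, against 693 bp for all regions, and it was 1452 bp at gene ends and 1278 bp for distal regions. A joined region grows with the number of lists it holds, so these widths follow partly from the rule. Covered width is the bases of a region inside intervals of 1 library. It sums all intervals of that library in the joined region, so it is not free of the rule either. Its median at gene-end constitutive regions was 1241, 1093 and 1094 bp in SmoM2-Sox9cKO, 1088, 1129 and 1206 bp in SmoM2, 721 and 521 bp in Embryo, and 1173, 1171 and 1240 bp in WT. At distal ones it was 1057, 942 and 941 bp in SmoM2-Sox9cKO, 938.5, 974 and 1037.5 bp in SmoM2, 627.5 and 451 bp in Embryo, and 986.5, 981.5 and 1044.5 bp in WT.

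The gene-end median exceeded the distal one by 154 ± 39.9 bp (SD, n = 11), in 11 of 11 libraries (exact sign-flip test, two-sided, p = 0.000977, the smallest it can give). The difference was 163 ± 18.5 bp in SmoM2-Sox9cKO and 158 ± 9.78 bp in SmoM2 (n = 3 each), 81.8 ± 16.6 bp in Embryo (n = 2) and 191 ± 4.58 bp in WT (n = 3). Again the libraries share their regions, so this p-value is no separate support for the difference.

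**Figure D4:**
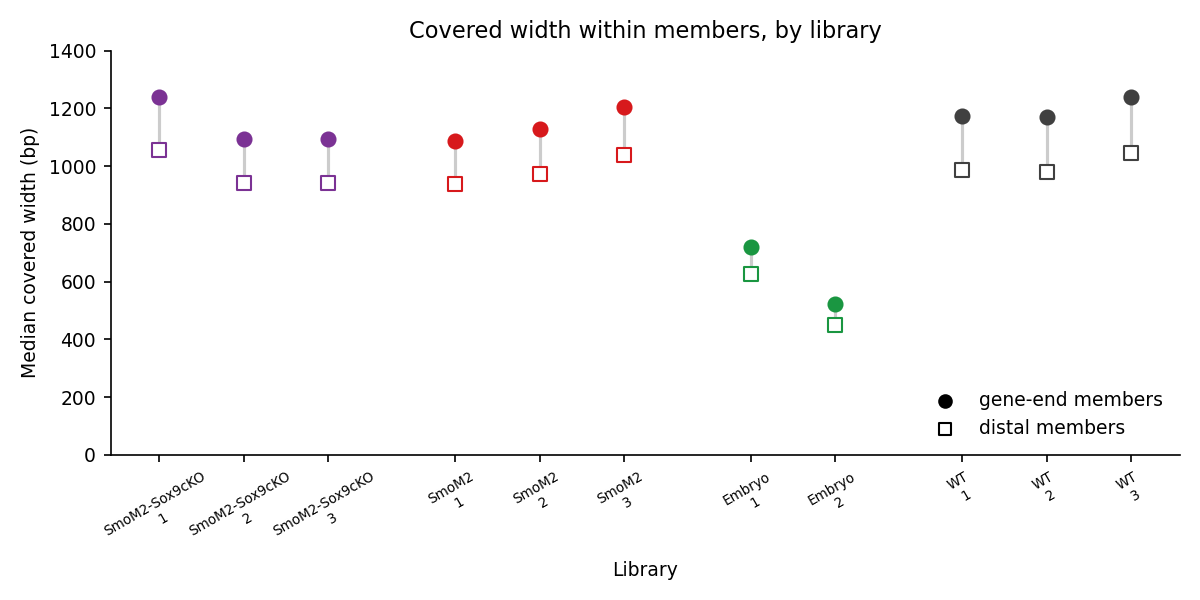
Median covered width of constitutive regions in each library (bp), with filled circles for gene-end regions and open squares for distal ones. Gene-end medians are above distal medians in each library, and both Embryo libraries are below all adult ones.

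Strength followed the same order. Gene-end constitutive regions had a median rank of 8.11% to 16.9% of the list in the adult libraries, and distal ones 15.5% to 23.1%. In Embryo 1 and 2 these were 19.4% and 36.0% at gene ends, and 37.1% and 55.9% for distal regions. Constitutive regions held 43.3% and 75.3% of the intervals of these shorter lists. Their rank percent there depends on list length and cannot be set against the adult one as strength. The authors' fold enrichment had a median over regions of 8.45 at gene ends and 7.19 for distal ones.

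The strongest point of the open interval, its summit, lay close to the start site. Among 4694 constitutive regions with 1 start site the median summit position was 16, 5 and 16 bp before the start site in SmoM2-Sox9cKO (-16, -5 and -16), 23, 14 and 12 bp before it in SmoM2 (-23, -14 and -12), 35 and 41 bp before it in Embryo (-35 and -41), and 18, 12 and 15 bp before it in WT (-18, -12 and -15). The Embryo summits were upstream of all adult medians. Summits within 100 bp of the start site made up 56.7% ± 1.94 in SmoM2-Sox9cKO, 57.9% ± 1.85 in SmoM2 (n = 3 each), 56.8% ± 3.36 in Embryo (n = 2) and 47.7% ± 7.89 in WT (n = 3), where WT 1 was lowest at 39.1%. The difference between groups in summit position was not tested.

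**Figure D5:**
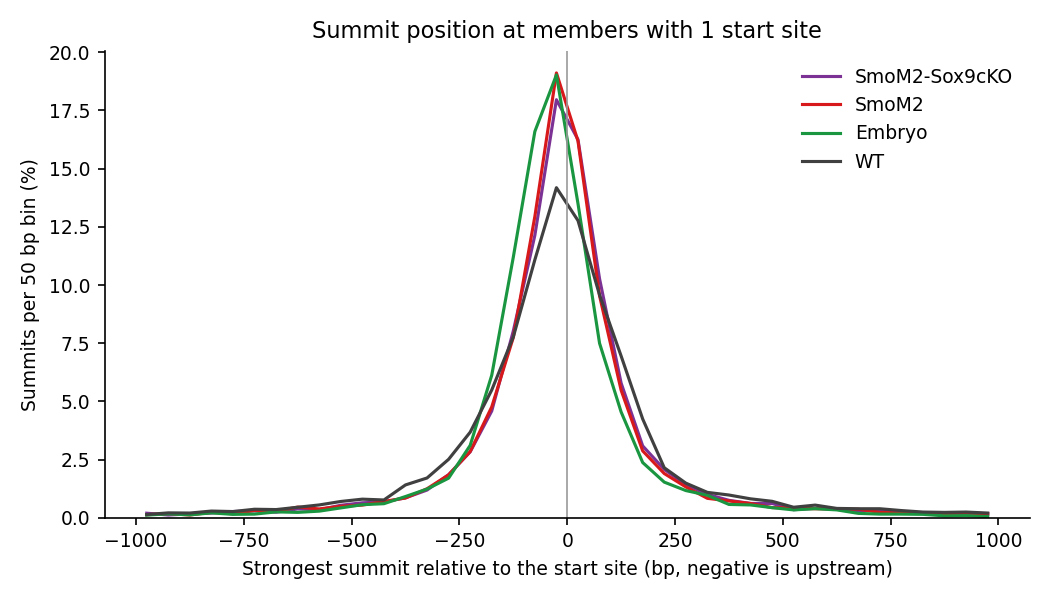
Position of the strongest summit relative to the annotated start site (bp, negative is upstream) in 50 bp bins, as percentage of summits, for 4694 constitutive regions with 1 start site and 4 groups. The peak is highest in the bin centred at -25 bp in all groups, at 19.02% in Embryo and 14.2% in WT.

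The place of the summit was stable between libraries. The median absolute deviation of summit positions over the 11 libraries had a median of 27 bp at gene-end regions and 29 bp at distal ones, and it was within 50 bp for 79.2% and 75.3% of them. WT 1 stood apart here too, with a median distance of 72.5 bp from the adult median summit at gene-end regions, against 23 to 39 bp in the other adult libraries and 46 and 51 bp in Embryo.

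The 2590 distal constitutive regions were mostly inside or near genes. Of these 1584 (61.2%) lay inside a protein-coding gene body, 833 (32.2%) within 100 kb of one and 173 (6.68%) farther away. The median distance to the nearest gene end was 8774 bp (quartiles 3646 and 21229), and 231 were more than 50 kb away. A known internal start site lay within 1 kb of 550 of the 2506 off chromosome 18 (21.9%), a lower bound because not every gene has a known one.

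The genes nearest to the most distal constitutive regions were Hrh1, a histamine receptor, with 13, Abcc4, a membrane transporter, with 6, and Atg7, an autophagy enzyme, Camk1d, Dlgap1, Etl4, Pde4d and Tns3 with 5 each. The densest stretch lay between Hrh1 and Atg7 (chr6:114496570-114629649), where 18 of 59 regions were constitutive, all distal. The number open in this stretch was 49, 49 and 47 in SmoM2-Sox9cKO, 38, 39 and 45 in SmoM2, 24 and 22 in Embryo, and 28, 39 and 41 in WT. SmoM2-Sox9cKO had the most, and WT 1 the fewest of the adult libraries. At Dlgap1, a postsynaptic scaffold gene beside the transcription factor gene Tgif1, 5 distal constitutive regions lay between 70707071 and 70756160 on chromosome 17.

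Sox2 was the nearest protein-coding gene to 1 distal constitutive region within 100 kb, and Trp63 to 3, which need not be their targets. The one nearest to Sox2, at chr3:34747321-34748497 and 94860 bp from the gene, was covered over 970, 1008 and 1007 bp in SmoM2-Sox9cKO, 1073, 1009 and 1060 bp in SmoM2, 1006 and 820 bp in Embryo, and 1137, 1058 and 1091 bp in WT. Embryo 1 lay within the adult range there, although the Embryo lists are short. The strongest of the 3 Trp63 regions, inside the gene at chr16:25779683-25780574, was covered over 790, 698 and 644 bp in SmoM2-Sox9cKO, 719, 550 and 754 bp in SmoM2, 329 and 416 bp in Embryo, and 749, 892 and 823 bp in WT.

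The top of the ranking was made of unusual regions. Among the 100 constitutive regions with the best median rank 42 were distal, against 158 of the best 1000. The top 20 distal ones had a median width of 480.5 bp and a median fold of 29.8, whereas the top 20 gene-end ones had a median fold of 13.2. The best (chr13:85126585-85127514), 61863 bp from any gene end and nearest to Ccnh, ranked between 1 and 4 in all 11 lists and was covered over 927, 929 and 930 bp in SmoM2-Sox9cKO, 927 bp in each of the 3 SmoM2 libraries, 927 and 927 bp in Embryo, and 920, 929 and 927 bp in WT. Here Embryo was as wide as the adult libraries. The next ones by rank included chr12:97061423-97061796, covered over 367 to 371 bp in the 11 libraries, and chr10:96077521-96077896, covered over 373 to 376 bp. Widths this alike in all libraries are unusual among the constitutive regions. Whether these regions reflect open chromatin or the mapping of reads to repeated sequence was not tested, so their rank is not read as strength of opening.

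Some constitutive regions were very wide or repeated. The widest, chr8:123537412-123624213, spans 86802 bp and holds 48 rRNA genes, most of them 5S copies, and it was covered over 86135, 86716 and 86802 bp in SmoM2-Sox9cKO, 84094, 85788 and 86130 bp in SmoM2, 80995 and 79614 bp in Embryo, and 80551, 83946 and 85393 bp in WT. The next, chr9:3000048-3038219, spans 38172 bp near the start of the assembled chromosome. On chromosome 6, between 47654806 and 47773139, 16 constitutive regions were spaced by a median of 4345 bp in an array of predicted genes beside Pdia4, and the first of them overlaps an rRNA gene, Rn4.5s. Reads from repeated copies can be split or stacked by an aligner, and their treatment was not analysed here.

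Density per gene was lowest on X. There were 38.0 to 58.0 constitutive regions per 100 protein-coding genes on the autosomes and 17.6 on X, where 170 lay. Of the regions open in all 9 adult libraries, 18.03% were constitutive on X, against 18.8% to 29.2% on the autosomes.

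Although open everywhere by choice, constitutive regions could still differ in how much of them was open. Covered width was compared on the log2 scale with limma, after each library was centred on its median, and p-values were adjusted (Benjamini-Hochberg) over all regions tested. In SmoM2 against WT, 5.36% of 44519 regions open in all adult libraries were called, and 240 of the 10555 constitutive regions were (2.27%). Of these 142 were wider in SmoM2, against 3.1% of all regions tested, and 98 were narrower, against 2.26%. Of the 7965 gene-end regions 150 were called (1.88%), and of the 2590 distal ones 90 (3.47%). Without centring 138 were called, 59 wider and 79 narrower, and with all regions and a pseudocount of 100 bp 341 were, 89 wider and 252 narrower, so the split by direction depends on these settings. Leaving out one library gave 82 calls without SmoM2 1, 102 without SmoM2 2, 137 without SmoM2 3, 156 without WT 1 and 135 without WT 3.

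The regions that widened most in SmoM2 are given with the nearest protein-coding gene, which need not be their target. One 18321 bp from Dagla, an enzyme that makes an endocannabinoid, at chr19:10323198-10324283, was covered over 915, 954 and 842 bp in SmoM2 and 296, 251 and 231 bp in WT (log2 change 1.86 ± 0.16 SE, limma adjusted p = 0.000984). The region at Senp7, a SUMO protease (chr16:56056478-56058157), was covered over 1436, 1270 and 1562 bp in SmoM2 and 302, 656 and 392 bp in WT (1.79 ± 0.24, limma adjusted p = 0.00519). One inside Cep112, a centrosomal protein gene (chr11:108525673-108528300), was covered over 1986, 2050 and 2522 bp in SmoM2 and 851, 307 and 541 bp in WT (2.12 ± 0.30, limma adjusted p = 0.00668). The others had Epha7, Galnt18, Lacc1, Rbms3 and Lrpprc as nearest gene, at up to 182660 bp, with log2 changes of 1.40 to 1.90.

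Of the 98 regions narrower in SmoM2, 68 were at gene ends (0.854% of gene-end constitutive regions) and 30 were distal (1.16% of distal ones). In Atg4a, an autophagy protease on X (chrX:140996998-140999342), the region was covered over 268, 319 and 283 bp in SmoM2 and 2134, 2017 and 2269 bp in WT (log2 change -2.83 ± 0.30 SE, limma adjusted p = 0.00232). At Fam81a (chr9:70140482-70142256) it was covered over 607, 734 and 806 bp in SmoM2 and 1410, 1469 and 1761 bp in WT (-1.06 ± 0.11, limma adjusted p = 0.00208). Others had as nearest gene Thnsl2, Ncoa3, Cers6, Sptlc3, Zfp976 and Arhgap28, with log2 changes of -1.99 to -1.16.

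In SmoM2-Sox9cKO against WT, which shares the WT libraries with the comparison above, 3% of 44519 regions were called, and 166 constitutive regions. Of these 86 were wider in SmoM2-Sox9cKO, against 1.91% of all regions tested, and 80 were narrower, against 1.09%. The region over an end of Krt19, a keratin of simple and progenitor epithelium (chr11:100145032-100146613), was covered over 1368, 1346 and 1360 bp in SmoM2-Sox9cKO and 283, 240 and 854 bp in WT, with 708, 976 and 1422 bp in SmoM2 (log2 change 1.84 ± 0.40 SE, limma adjusted p = 0.0415 against WT). The call was lost in 9 of 17 alternatives, with limma adjusted p from 0.00317 to 0.121. Dagla had 849, 791 and 702 bp (1.63 ± 0.16, limma adjusted p = 0.00223) and Senp7 1449, 1169 and 1413 bp (1.68 ± 0.24, limma adjusted p = 0.00879) in SmoM2-Sox9cKO. Leaving out one library gave 34 calls without SmoM2-Sox9cKO 2, 52 without SmoM2-Sox9cKO 3, 90 without SmoM2-Sox9cKO 1, and 92 without WT 1 and without WT 3 alike, and 74 were called without centring (29 wider, 45 narrower). With all regions and the pseudocount 237 were called, 86 wider and 151 narrower.

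In SmoM2-Sox9cKO against SmoM2 few regions were called at all. The calls were 0.0314% of 44519 regions and 2 of the constitutive ones, 1 in each direction (0.0202% of all regions were wider and 0.0112% narrower). The Atg4a region was wider in SmoM2-Sox9cKO, at 1037, 2283 and 2254 bp against 268, 319 and 283 bp in SmoM2 (log2 change 2.57 ± 0.30 SE, limma adjusted p = 0.0451). A distal region nearest to F11r, a tight junction protein gene (chr1:171477857-171479231), was narrower, at 662, 631 and 601 bp in SmoM2-Sox9cKO against 1047, 1062 and 1299 bp in SmoM2 (-0.86 ± 0.11, limma adjusted p = 0.0451). Leaving out any library took the number called to 0 or 1, so neither call is held by all libraries. A p that misses the threshold does not show that widths were alike.

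In Embryo against WT the width had another meaning, since Embryo intervals were narrower almost everywhere. The comparison used 10772 regions open in all 5 libraries, 14.4% of which were called, and 1482 constitutive regions. Relative to the median of each library 653 were wider in Embryo, against 6.64% of all regions tested, and 829 were narrower, against 7.73%. Since 10555 of the 10772 regions tested were the constitutive regions themselves, these shares are no separate background. The 217 tested regions that were not constitutive were called in 30.4% of cases, with 28.6% wider and 1.84% narrower in Embryo. Without centring 7739 constitutive regions were called, 7720 of them narrower. Leaving out one library gave 239 calls without WT 3, 336 without WT 1, 411 without WT 2 and 3019 without Embryo 1. In the last of these 1 Embryo library is left, which is assumed to vary like the WT ones.

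The most narrowed regions were held to a short interval in Embryo. Beside Sox4, a progenitor transcription factor gene (chr13:28957894-28959988), coverage was 318 and 299 bp in Embryo and 1945, 2031 and 2090 bp in WT (log2 change -1.76 ± 0.17 SE, limma adjusted p = 0.00559). At Hspg2, the gene of the basement membrane proteoglycan perlecan (chr4:137468213-137471132), it was 354 and 350 bp in Embryo and 2829, 2452 and 2744 bp in WT (-1.97 ± 0.18, limma adjusted p = 0.00559). The regions at Rab7b, Glis3, Tubb6 and Pls3, and distal ones with Clhc1 and Fzd1 as nearest gene, had log2 changes of -1.96 to -1.78. All 8 changed sign in a fit over all regions with a pseudocount of 100 bp, which changes the regions centred on and the scale together.

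The 8 regions most widened in Embryo exceeded WT in bp as well, with all Embryo values above all WT values. The Dagla region had 668 and 742 bp in Embryo and 296, 251 and 231 bp in WT (2.40 ± 0.29, limma adjusted p = 0.00682). The Lacc1 region (chr14:76874673-76876408), 145331 bp from that gene, had 1588 and 1124 bp in Embryo and 441, 876 and 335 bp in WT (2.35 ± 0.38, limma adjusted p = 0.0119). The SmoM2-Sox9cKO and SmoM2 comparisons share these WT libraries, where the same region had 1389, 1131 and 1237 bp in SmoM2-Sox9cKO and 1499, 1403 and 1513 bp in SmoM2.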

How the data were processed

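ATAC-seq libraries of sorted mouse esophagus cells were compared as lists of open intervals, 1 for each of 11 libraries. Per the submitters' processing notes the tools were Trimmomatic, Bowtie2, Picard, MACS2 and deepTools, on GRCm38 (mm10); no version or setting is named. The score column of each list was made by the authors and was not used. The fold enrichment of each peak was deposited by the authors. The −log10 p-value, and its −log10 q-value, were likewise deposited by the authors, with a summit position. All other values were computed here. Depth is unknown, and neither an interval nor a floor on reads can be given.

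Repeated lines of an interval were joined and its strongest summit kept. Intervals on chromosomes 1 to 19 and X sharing at least 1 bp were merged into regions. Gene ends, start sites and sequences came from RefSeq tables (GRCm38.p6). Covered width was tested with limma 3.58.1 (variance trend on) in R 4.3.3, with 9 adult libraries in one fit and Embryo with WT in another, at an adjusted p of 0.05; the steps were tested on simulated data. Coordinates are 1-based. Genes named follow a rule: lowest median ranks, widest and farthest regions, up to 4 genes with a region per list by rank and up to 4 without, genes with most distal regions, fixed genes of the pathway and epithelium, and the largest called changes without overlap; genes outside it were named after their values were seen. The members and lists were chosen with earlier results of these data known. Replicate numbers were not used to pair libraries. Alternatives were stricter intervals, equal list lengths, other widths and scalings and leaving out libraries. Some genes of the lists are not reported here by name.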

Additional observations from a re-analysis of the deposited data

How the results depend on the processing

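The gene-end excess per library and the gene-end width excess stayed positive in the settings where they were computed, which do not include fixed windows or 50% coverage. Their sizes moved, to 44.4 points and 81.0 bp with lists of equal length and, in an alternative chosen after seeing the data, to 21.1 points and 292 bp without both Embryo libraries. The number of constitutive regions was 7130 with −log10 q of at least 5, 3621 with lists of equal length, 1899 with 50% of the region covered and 44521 without both Embryo libraries. Their gene-end share was 82.3%, 85.4%, 76.5% and 34.1% under these settings, 73.2% and 78.3% with gene-end distances of 500 bp and 2 kb, and 69.6% with protein-coding genes only. Distal regions numbered 1259, 527, 446 and 29327 under the first 4 settings. The median width was 1080 bp with windows of fixed length on summits and 1131 bp without both Embryo libraries. Leaving out each library in turn gave 10556 to 16388 regions, 66.6% to 75.4% at gene ends, 2597 to 5475 distal ones and median widths of 1361 to 1407 bp. Without Embryo 2 the first 3 of these were 16388, 66.6% and 5475.

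Counts of constitutive regions called by width depended on the setting. In SmoM2 against WT they were 138 without centring and 94 with the stricter intervals, and 82 to 255 when leaving out one library. In SmoM2-Sox9cKO against WT they were 74 without centring, 74 with stricter intervals, 98 with the widest single interval and 94 with the 6 libraries alone, and 34 to 168 when leaving out one. In SmoM2-Sox9cKO against SmoM2 they were 0 without centring, 1 with stricter intervals, 7 with all regions and a pseudocount of 100 bp, 1 on autosomes, 0 with the 6 libraries alone, and 0 to 1 when leaving out one. At an unadjusted p under 0.05, 178 were wider and 310 narrower in that comparison. In Embryo against WT they were 7739 without centring, 858 with stricter intervals, 9901 with all regions and the pseudocount, 745 with the widest interval and 3622 with all 11 libraries in one fit, and 239 to 3019 when leaving out one. Under the pseudocount setting 8 narrower regions changed sign, to 0.018 at Hspg2, 0.0028 at Rab7b, 0.024 at Glis3, 0.14 at Tubb6, 0.14 at Clhc1, 0.22 at Fzd1, 0.23 at Pls3 and 0.26 at Sox4; the cause was not tested. Of 793 values of named regions under alternatives, 592 kept their call and 193 lost it.

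Deviations of adult libraries with the same replicate number were weakly correlated between groups (-0.0365 to 0.0752, median 0.0206). With different numbers the correlations were -0.0784 to 0.0799 (median -0.0157). For WT with SmoM2, the same numbers gave 0.0289, 0.0522 and 0.0607, and different numbers gave -0.0436 to -0.00875. For SmoM2 with SmoM2-Sox9cKO, the same numbers gave -0.0365, 0.0103 and -0.0219. Such weak values cannot decide whether the numbers mark a pairing. With a replicate block 183 regions were called in SmoM2 against WT, 103 in SmoM2-Sox9cKO against WT, 0 in SmoM2-Sox9cKO against SmoM2 and 1034 in Embryo against WT. Depth being unknown, an interval missing in a short list cannot be told from one that is closed.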
